A study of Mus musculus with 12 samples.

Results

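Fusion of the sperm with the egg, and the block that keeps further sperm out, depend on a small set of proteins made by the oocyte. The transcripts of 4 of these genes, Cd9, Cd81, Izumo1r and Astl, were followed here. They were chosen by name for their known roles among the 24255 genes of the table. All 4 had a row, and 3 of them, Cd9, Izumo1r and Astl, reached the minimum of 1 FPKM in at least 1 library that was set for testing. FPKM scales sequenced fragments by transcript length and by the fragments mapped in the library. Whether the deposited values were also scaled between libraries is not known here.

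CD9 and CD81 are tetraspanins, proteins that cross the membrane several times and gather other proteins around them, and eggs without CD9 bind sperm but rarely fuse with them. Izumo1r, also called Juno or Folr4, encodes the egg receptor for the sperm protein IZUMO1, and it is held to the membrane by a GPI anchor. Astl encodes ovastacin, a metalloprotease of the astacin family that is stored in cortical granules. After fertilization it is released and cleaves the zona pellucida protein ZP2, so that the coat around the egg no longer binds sperm.

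Dpagt1 encodes the first enzyme of protein N-glycosylation, and the libraries, made by Smart-seq2 from 20 oocytes each at the germinal vesicle stage, came from C57BL/6J females aged 3 weeks, 46 h after 5 IU of PMSG. There were 3 libraries in each of 4 groups: wildtype (WT, numbered 4 to 6), a recessive ENU-induced missense change of aspartic acid 166 to glycine, carried in all cells (MUT, 1 to 3), Dpagt1F/F with Gdf9-Cre, which acts in oocytes (GcKO, 1 to 3), and Dpagt1F/F with Amhr2-Cre, which acts in granulosa cells (AmcKO, 4 to 6). The number of females per pool was not given in the sources used here, so p-values measure only the spread between these samples, which may be technical. If the numbers follow separate collections, collection and genotype cannot be told apart between MUT or GcKO and WT or AmcKO.

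The targeted gene gave no check of the labels. MUT replicates 1, 2 and 3 had 0.878, 0.408 and 0.985 FPKM of Dpagt1, GcKO replicate 2 had 0.366 FPKM, and the gene was listed at 0 in the other 2 GcKO libraries and throughout WT and AmcKO. Such zeros may be estimates that failed, as the table gives 0 in all 12 libraries for 8 of 84 genes of ribosomal proteins.

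The libraries were of oocytes by their markers. Of 11 oocyte genes, 10 were tested, and Ooep, Oosp1 and Gdf9 were the most abundant, with means over the 12 libraries of 3878, 2920 and 2547 FPKM, while Sohlh1 was listed at 0 throughout. Against WT, 1 of the 10 was called higher (Zar1) and 2 lower (Ooep and Oosp1), in MUT and in GcKO alike, with medians of -0.25 and -0.22, where 9.46% of all genes were called higher and 11.3% lower in MUT, and 8.71% and 11.4% in GcKO. The call of Zar1 was lost without any of 4 libraries in MUT (limma adjusted p up to 0.102) and any of 3 in GcKO (limma adjusted p up to 0.118). These counts depended on the scale. With each library brought to the same FPKM sum, 6 of the 10 were called higher and 1 lower in both contrasts (medians 0.73 and 0.82), when 4641 and 4769 of all 11233 genes were called higher and their medians were 0.70 and 0.73. Quantile normalization gave 3 higher in MUT and 6 in GcKO and none lower (medians 0.36 and 0.72, or 0.33 and 0.70 relative to all genes), when 753 and 691 of all genes were called higher. Oosp1 turned positive under both scalings. The granulosa cell markers Foxl2, Amh, Amhr2, Wt1, Ptx3 and Tnfaip6 were listed at 0 in all libraries. The most abundant of the 15 granulosa cell genes was Cyp19a1, at 6.70 to 20.9 FPKM, and their summed level ranged between 17.6 and 24.0 FPKM for WT, 14.99 and 27.4 for MUT, 14.5 and 29.0 for GcKO, and 11.6 and 22.7 for AmcKO. Of the 7 tested, 2 were called higher in MUT than in WT and none lower (median 0.14), namely Inha and Hsd17b1, listed at 0 in WT and reaching 5.44 and 3.09 FPKM in MUT. Hsd17b1 reached the minimum of 1 FPKM in MUT libraries only, and Inha in MUT and GcKO libraries only. Both were thus tested only through groups where they were higher than in WT, so no conclusion is drawn from their calls. The call of Hsd17b1 in MUT against WT was lost without MUT replicate 3 (limma adjusted p = 0.050002). In GcKO none was called, although the median was 0.52 against 0.12 for all genes, and at the same FPKM sum 3 of the 7 were called higher, as were 4769 of all 11233 genes (median 0.97, against 0.73 for all genes). None was called in AmcKO against WT. In MUT against AmcKO, Inha and Hsd17b1 were 2 of the 7 called higher, against 159 of all 11233 genes. The call of Inha was lost without any of 4 libraries (limma adjusted p up to 0.0869), and that of Hsd17b1 without any of 5 (limma adjusted p up to 0.105) and under quantile normalization (limma adjusted p = 0.0611). The part of other cells in the results was not tested. None of the 5 theca and 6 erythroid markers reached 1 FPKM, with Star (at most 0.813 FPKM) and Hba-a1 (at most 0.96 FPKM) the highest by mean. Among 6 leukocyte markers, 5 were at 0 and Cd68 reached 2.86 FPKM. Cd68 lay between 1.80 and 2.86 FPKM for WT, 0.736 and 1.51 for MUT, 0 and 1.18 for GcKO, and 0 and 1.95 for AmcKO. As deposited it was not called against WT (-0.66 in MUT, -1.18 in GcKO and -0.82 in AmcKO). Under quantile normalization it was called lower in GcKO (-1.45).

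The scale of the libraries differed between the groups, and this bears on each level below. FPKM sums lay between 1167362 and 1226005 for WT, 589617 and 611597 for MUT, 482314 and 684212 for GcKO, and 883256 and 1107925 for AmcKO. Genes above 0 numbered between 9359 and 9622 for WT, 11208 and 11467 for MUT, 10733 and 11608 for GcKO, and 10399 and 10921 for AmcKO. Median-of-ratios scaling moved the calls against WT little. In MUT, 1063 higher and 1269 lower became 1051 and 1297, and in GcKO, 978 and 1286 became 969 and 1302. A call that also held under this scaling was therefore checked little further by it. As the values are relative and not amounts per oocyte, less of a transcript and more of other transcripts cannot be told apart. Depth is unknown because the values hold no counts.

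Izumo1r was the most abundant member and the one whose transcript was lowest in MUT relative to WT. Its level was 278, 318 and 332 FPKM in WT replicates 4, 5 and 6. In MUT replicates 1, 2 and 3 it was 163, 181 and 136 FPKM. The GcKO libraries held 139, 213 and 219.8 FPKM for replicates 1, 2 and 3. All MUT and all GcKO values thus lay below the lowest WT value. In AmcKO replicates 4, 5 and 6 it was 269, 235 and 223 FPKM, again below each WT library and above every MUT and GcKO library.

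By group, Izumo1r was highest in WT, at 309 ± 28.2 FPKM (SD, n = 3), followed by AmcKO at 242 ± 23.8, GcKO at 191 ± 45.1 and MUT at 160.2 ± 22.4 FPKM (SD, n = 3 each). On the log2(FPKM + 1) scale, MUT was lower than WT by a log2 fold change of -0.95 (standard error, SE, 0.19, limma adjusted p = 0.00287), or 0.518 of the WT level with a 95% interval of 0.393 to 0.683. GcKO was also lower than WT, with a log2 fold change of -0.72 (SE 0.19, limma adjusted p = 0.0142), or 0.606 of WT with an interval of 0.46 to 0.8. Calls were frequent in both contrasts. Of the 11233 genes tested, 20.8% were called in MUT against WT, 11.3% as lower and 9.46% as higher, and 20.2% were called in GcKO against WT, 11.4% as lower and 8.71% as higher. Izumo1r was the 1 of 3 tested members called lower in each. Relative to the median log2 fold change of all genes, 0.12 in both contrasts, it stood at -1.07 in MUT and -0.84 in GcKO.

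The neighbours in this order did not differ by the test. AmcKO against WT gave a log2 fold change of -0.35 (95% interval -0.75 to 0.05, limma adjusted p = 0.374), GcKO against AmcKO gave -0.37 (interval -0.77 to 0.03, limma adjusted p = 0.306), and GcKO against MUT gave 0.23 (interval -0.17 to 0.63, limma adjusted p = 0.930). MUT against AmcKO, with -0.60, missed the threshold (limma adjusted p = 0.0737), but was called without GcKO replicate 1 (limma adjusted p = 0.0192). With 1 library left out, GcKO against AmcKO ranged from -0.49 to -0.16 and GcKO against MUT from 0.11 to 0.44. Both lower calls depended on the scale. With each library brought to the same FPKM sum, the change of Izumo1r was 0.04 in MUT and 0.31 in GcKO, and neither was called, while the median of all genes moved to 0.70 and 0.73, so that Izumo1r stood at -0.66 and -0.42 relative to it. Under quantile normalization it was -0.29 in MUT and turned to 0.05 in GcKO, again without a call. The call in GcKO was also lost without WT replicate 6 (log2 fold change -0.67, limma adjusted p = 0.0548).

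**Figure D1:**
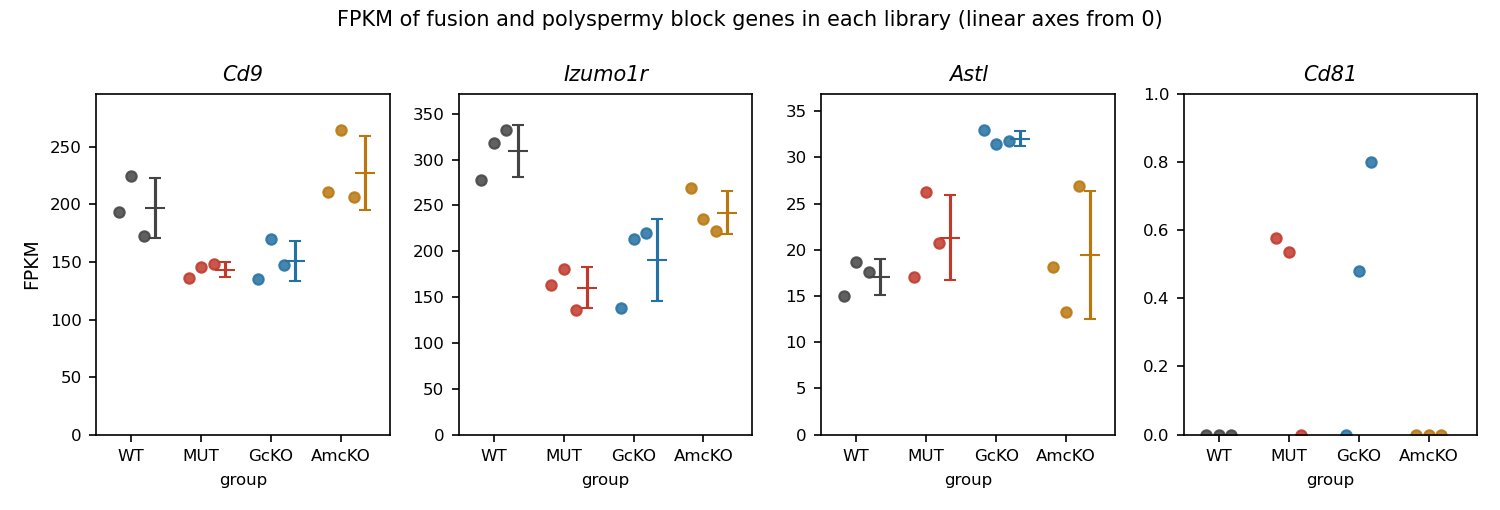
FPKM (linear axes from 0) of Cd9, Izumo1r, Astl and Cd81 in each of the 12 libraries, by group; points are libraries in the order of their replicate numbers, and bars beside the points of the first 3 genes show the mean and SD (n = 3). Izumo1r lay between 278 and 332 FPKM in WT and between 136 and 181 FPKM in MUT, the GcKO values of Astl, 31.4 to 33.0 FPKM, lay above all others, and Cd81 was above 0 in 4 libraries.

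Position within a library, which does not depend on its scale, did not give the same order. Of the genes above 0, Izumo1r exceeded between 94.4 and 95.1% for WT, 94.4 and 95.4% for MUT, 95.4 and 96.2% for GcKO, and 94.9 and 95.5% for AmcKO. GcKO thus lay above WT without overlap, opposite to the deposited levels. The number of genes above 0 differs between the groups, so ranks were compared as well. Izumo1r ranked between 471 and 529 for WT, 525 and 630 for MUT, 442 and 528 for GcKO, and 467 and 544 for AmcKO, where WT overlapped with each group.

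Cd9 stood at 194, 225 and 172 FPKM in WT replicates 4, 5 and 6. MUT replicates 1, 2 and 3 held 136, 146 and 148 FPKM, and GcKO replicates 1, 2 and 3 held 136, 169.8 and 148 FPKM. All of these lay below the lowest WT library, GcKO replicate 2 by the least. The AmcKO replicates 4, 5 and 6 had 210.5, 265 and 207 FPKM, overlapping with WT and above each MUT and GcKO library.

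The order of the group means was AmcKO at 227 ± 32.5, WT at 197 ± 26.3, GcKO at 151 ± 17.4 and MUT at 143 ± 6.32 FPKM (SD, n = 3 each). Although the MUT and WT values did not overlap, the change of -0.45 (SE 0.16, 95% interval -0.78 to -0.11) just missed the threshold in limma (adjusted p = 0.0569). In GcKO against WT the log2 fold change was -0.38 (interval -0.71 to -0.04, limma adjusted p = 0.103), and in AmcKO against WT it was 0.20 (interval -0.13 to 0.54, limma adjusted p = 0.540), where 0.214% of genes were called and none of the members. GcKO and MUT differed by 0.07 (interval -0.27 to 0.40, limma adjusted p = 0.993), in a contrast that called 0.205% of the genes.

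Cd9 differed by the test between AmcKO and both MUT and GcKO, of which MUT carries its allele in granulosa cells as well as in oocytes. It was lower in MUT than in AmcKO, by a log2 fold change of -0.65 (SE 0.16, limma adjusted p = 0.0226), where 6.49% of genes were called, 5.07% as lower. It was also lower in GcKO than in AmcKO, with -0.58 (SE 0.16, limma adjusted p = 0.0451), where 5.46% were called, 4.79% as lower. These calls were close to the threshold. That for GcKO was lost on leaving out any of 10 of the 12 libraries and that for MUT with any of 4, AmcKO replicate 5 and each MUT replicate. Both were lost without the abundance trend (limma adjusted p = 0.149 for GcKO and 0.1005 for MUT), and that for GcKO with only the 2 groups compared (limma adjusted p = 0.160). With the same FPKM sum in each library, the difference was 0.04 for MUT and 0.16 for GcKO, with medians of all genes at 0.52 and 0.54.

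The sign of the Cd9 contrasts with WT also rested on the scale. At the same FPKM sum Cd9 was higher in MUT (0.54, limma adjusted p = 0.00850) and in GcKO (0.65, limma adjusted p = 0.00285), though at -0.16 and -0.07 relative to the median of all genes. Under quantile normalization the sign turned as well, to 0.13 and 0.27, without a call. Within libraries, Cd9 exceeded between 92.6 and 93.6% of the genes above 0 for WT, 94.3 and 94.7% for MUT, 94.0 and 95.4% for GcKO, and 94.7 and 95.3% for AmcKO. Its rank was between 600 and 712 for WT, 594 and 646 for MUT, 537 and 647 for GcKO, and 507 and 547 for AmcKO.

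The annotation of Cd9 leaves a doubt about strand. In GENCODE M21 on GRCm38, Cd9 lies on the reverse strand at chr6:125460266-125494791, and its principal transcript has 8 exons and 1228 nt. The noncoding genes Gm28809 and Gm26728 overlap it on the forward strand. They have no row of their own and were not analysed here. Whether the authors counted by strand was not given in the sources used here, so fragments from either strand may be included.

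Cd9 stood out from its own family in level. Among 31 tetraspanin genes it had the highest mean in each group, and which came next differed. In WT and AmcKO it was Tspan12, with means of 24.8 and 33.5 FPKM (n = 3 each), and in MUT and GcKO it was Tspan14, with 25.9 and 28.2 FPKM (n = 3 each). Besides Cd9 and Cd81, 15 of the other 29 were tested and 12 were listed at 0 in every library, among them Cd63 and Cd82. In MUT against WT, 3 of the 15 were called higher, namely Tspan14, Tspan33 and Cd151, and 2 lower, namely Tspan12 and Tspan3, where 9.46% of all genes were called higher and 11.3% lower. In GcKO, the same 3 higher genes were called, and Tspan8 was called lower, where the shares of all genes were 8.71% and 11.4%. The list's median log2 fold change was 0.24 in MUT and 0.29 in GcKO, against 0.12 for all genes. At the same FPKM sum, 7 of the 15 were called higher in MUT and 9 in GcKO, and none lower, while 4641 and 4769 of all 11233 genes were called higher.

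Both tetraspanins called lower in MUT had values there below those of every other library. For Tspan12, WT replicates 4, 5 and 6 held 30.9, 23.8 and 19.8 FPKM, against 7.44, 7.79 and 9.06 FPKM for MUT replicates 1, 2 and 3. The nearest of the other libraries was GcKO replicate 1 at 11.5 FPKM. Tspan3 was at 5.91 to 8.24 FPKM in MUT, and at 11.01 FPKM or more elsewhere, but its call was lost without MUT replicate 1 or WT replicate 6 (limma adjusted p up to 0.0749), and at the same FPKM sum its sign turned (0.16). Neither was called in GcKO against MUT (limma adjusted p = 0.162 for Tspan12 and 0.131 for Tspan3). The log2 fold change of Tspan12 in MUT against WT was -1.49 (SE 0.25, limma adjusted p = 0.00124), and its call held with each library left out in turn. At the same FPKM sum it was -0.56, or -1.26 relative to the median of all genes, and not called (limma adjusted p = 0.0620). Under quantile normalization it was -1.48 and called (limma adjusted p = 0.00326). Tspan14 went the other way, from 8.64 ± 2.91 FPKM in WT to 25.9 ± 7.42 FPKM in MUT and 28.2 ± 10.6 FPKM in GcKO (SD, n = 3 each). It was higher under all 3 other scalings, though median of ratios changed the values little. Its calls were each lost without any of 4 libraries (limma adjusted p up to 0.101 in MUT and 0.0818 in GcKO). The calls of Cd151 were lost without any of 9 libraries in MUT and 10 in GcKO, as was that of Tspan8 without any of 10.

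Cd81, the second tetraspanin with a role at fusion, was close to or at 0. MUT replicates 1, 2 and 3 had 0.575, 0.536 and 0 FPKM, GcKO replicates 1, 2 and 3 had 0, 0.48 and 0.801 FPKM, and every WT and AmcKO library was listed at 0. Its values above 0 exceeded 16.0 to 19.1% of the genes above 0 in the same library. No library reached 1 FPKM, so Cd81 was left out of the test. With no filter on low values, 14933 genes could be tested, and Cd81 was called in none of the 6 contrasts (against WT, 0.43 for MUT with limma adjusted p = 0.235, and 0.47 for GcKO with 0.185). More genes were above 0 in MUT and GcKO than in WT libraries, as given above, and the part of this in the Cd81 values was not tested.

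The Cd81 row also has a particular locus. In GENCODE the gene is on the forward strand at chr7:143052739-143067934, and its principal transcript has 8 exons and 1533 nt. The deposited table gives it a wider locus, from 143021782 to 143067930, which it shares with R74862, a noncoding gene of the reverse strand that overlaps its start. R74862 was listed at 0 in all 12 libraries. A 0 of Cd81 is therefore reported as listed, and not as absence of the transcript.

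Of 10 further genes for egg-surface proteins that were listed with the fusion proteins, such as integrins and the CD9 partners Igsf8 and Ptgfrn, 6 were tested. Igsf8 was above 0 in 2 libraries, at no more than 1.02 FPKM, and Ptgfrn reached 1.32 FPKM. The most abundant were the integrin genes Itga6, Itga9 and Itgb1, with means over the 12 libraries of 20.5, 13.8 and 4.33 FPKM. Itga6, which encodes the alpha subunit of a laminin receptor, was at 6.66, 13.2 and 11.3 FPKM in WT, 26.5, 24.4 and 26.1 in MUT, and 34.8, 25.2 and 23.0 in GcKO libraries in the order of their numbers. AmcKO libraries had 17.7, 14.3 and 22.8 FPKM, so that every library of the other 3 groups had more than each WT library. Against WT it rose by 1.27 in MUT (SE 0.26, limma adjusted p = 0.00335) and 1.36 in GcKO (SE 0.26, limma adjusted p = 0.00226). Both calls held with each library left out in turn and under all 3 other scalings, though median of ratios changed the values little. In AmcKO it was not called (0.78, limma adjusted p = 0.181). Itga9 was called higher in MUT as well, with a log2 fold change of 0.75 (limma adjusted p = 0.0156), though not without MUT replicate 2 (limma adjusted p = 0.0502). The change in AmcKO was 0.73 and not called (limma adjusted p = 0.134), and its levels of 13.9 to 17.3 FPKM there overlapped with 14.8 to 18.1 FPKM in MUT. The other 4 were called in neither contrast as deposited, and the median of the 6 was 0.48 in MUT and 0.47 in GcKO. Thus 2 of the 6 were called higher in MUT and 1 in GcKO, against 9.46% and 8.71% of all genes. With the same FPKM sum in each library, 3 of the 6 were called higher in MUT and 4 in GcKO (medians 0.98 and 1.03). Of all 11233 genes, 4641 and 4769 were then called higher, with medians of 0.70 and 0.73.

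A GPI anchor, which holds the Izumo1r protein, is attached by the GPI transamidase. Of its 5 subunit genes, 4 were tested, with Pigu (19.5 FPKM), Pigk (6.81) and Pigs (2.41) the most abundant by mean, and Pigt was listed at 0. Gpaa1 was the 1 call of the 4, higher in GcKO than in WT (limma adjusted p = 0.0319), where 8.71% of all genes were called higher, at 0.723, 1.02 and 0.564 FPKM in GcKO replicates 1, 2 and 3 against a listed 0 in all WT libraries. Gpaa1 reached the minimum of 1 FPKM in GcKO replicate 2 alone. It was thus tested only through the group where it was higher, so no conclusion is drawn from its call. It was not called under quantile normalization (limma adjusted p = 0.122). MUT replicates 1, 2 and 3 had 0.406, 0.753 and 0.455 FPKM, without a call (log2 fold change 0.61, limma adjusted p = 0.0947). Among the other folate receptor and carrier genes, Folr1 and Folr2 were listed at 0, Slc46a1 was above 0 in 1 library, and Slc19a1 reached 2.02 FPKM and was called higher in GcKO than in WT (limma adjusted p = 0.0246), where it was listed at 0. That call was lost without any of 5 libraries (limma adjusted p up to 0.0780). Slc19a1 reached the minimum of 1 FPKM in MUT and GcKO libraries only. It was thus tested only through groups where it was higher than in WT, so no conclusion is drawn from its call. Izumo1r itself lies on the reverse strand at chr9:14885814-14903949, with 5 exons and 1291 nt in its principal transcript, and no other GENCODE gene overlaps it.

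Astl moved differently from both surface proteins. WT replicates 4, 5 and 6 contained 14.96, 18.7 and 17.6 FPKM, against 33.0, 31.4 and 31.7 FPKM for GcKO replicates 1, 2 and 3. The GcKO values lay close together and above every other library. MUT replicates 1, 2 and 3 held 17.04, 26.2 and 20.7 FPKM, overlapping with WT. AmcKO replicates 4, 5 and 6 were the most scattered, at 18.1, 13.3 and 26.9 FPKM, and overlapped with both.

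In the order of means, Astl was at 32.04 ± 0.806 FPKM in GcKO, 21.3 ± 4.61 in MUT, 19.4 ± 6.89 in AmcKO and 17.1 ± 1.92 in WT (SD, n = 3 each). GcKO was higher than WT by a log2 fold change of 0.88 (SE 0.24, limma adjusted p = 0.0192), or 1.84-fold with a 95% interval of 1.28 to 2.62. Astl was the 1 of the 3 tested members called higher in that contrast, where 8.71% of all genes were. MUT against WT gave 0.29 (interval -0.23 to 0.81, limma adjusted p = 0.419) and AmcKO against WT 0.13 (interval -0.39 to 0.64, limma adjusted p = 0.835).

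GcKO was not shown to differ from the other groups with a change of Dpagt1. The log2 fold change was 0.59 against MUT (interval 0.07 to 1.101, limma adjusted p = 0.626) and 0.75 against AmcKO (interval 0.23 to 1.26, limma adjusted p = 0.0930), though without AmcKO replicate 6 the latter was 1.00 and called (limma adjusted p = 0.0285). The higher level in GcKO than in WT was called under each of the 3 other scalings, though median of ratios changed the values little. At the same FPKM sum the log2 fold change was 1.86, or 1.14 above the median of all genes. It was not called without GcKO replicate 1 (0.86, limma adjusted p = 0.0680), GcKO replicate 2 (0.89, limma adjusted p = 0.0533) or WT replicate 4 (0.79, limma adjusted p = 0.0678). In MUT, Astl was called higher at the same FPKM sum alone (1.23, limma adjusted p = 0.00399).

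The position of Astl within the libraries gave the same order for WT and GcKO. It exceeded between 71.0 and 73.4% of the genes above 0 for WT, 83.4 and 86.1% for GcKO, 77.5 and 82.8% for MUT, and 72.7 and 81.7% for AmcKO. Its rank was 2485 to 2757 in WT and 1602 to 1777 in GcKO, with no overlap. GENCODE places Astl on the forward strand at chr2:127338639-127357651, and its principal transcript has 9 exons and 2377 nt.

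**Figure D2:**
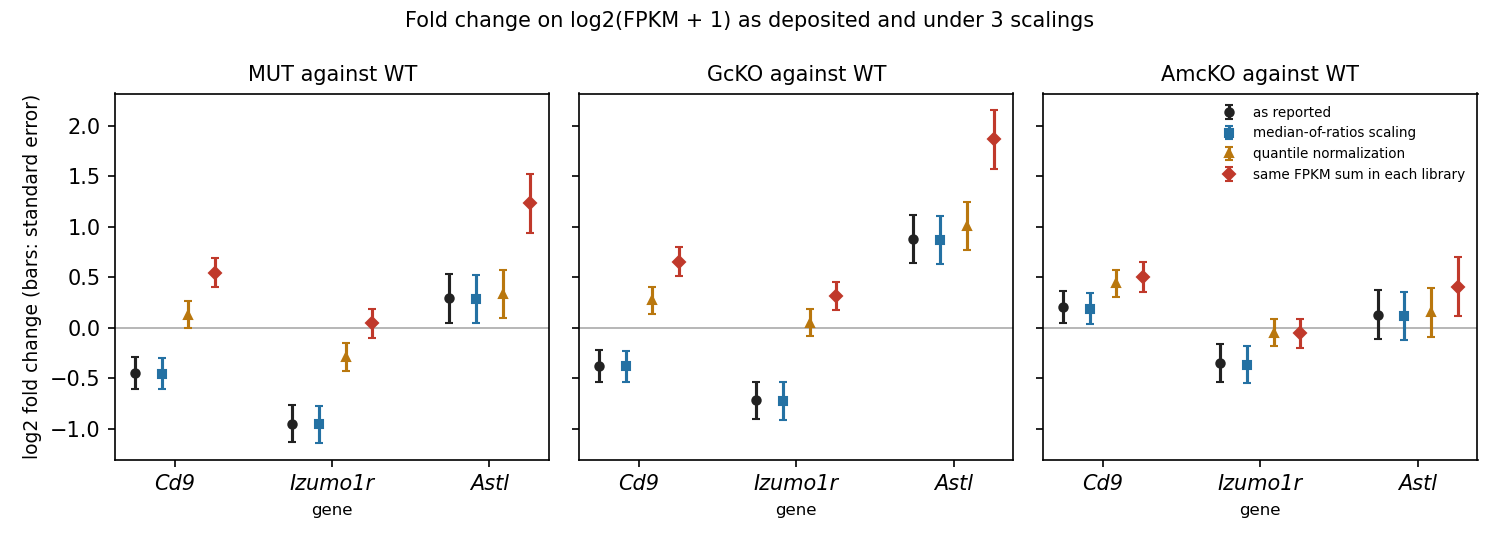
Log2 fold change of Cd9, Izumo1r and Astl on the log2(FPKM + 1) scale in MUT, GcKO and AmcKO against WT, with values as deposited and after 3 other scalings of the libraries; bars show the standard error from limma. For Cd9 and Izumo1r the points at the same FPKM sum lie above 0 in MUT and GcKO, against -0.45 and -0.95 as deposited in MUT, whereas Astl in GcKO was above 0 under all of them.

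Ratios of 2 transcripts within a library do not depend on its scale. The ratio of Astl to Izumo1r was 0.0538, 0.0589 and 0.0528 in WT libraries, 0.104, 0.145 and 0.152 in MUT and 0.238, 0.147 and 0.144 in GcKO, so that every MUT and GcKO library had a higher ratio than each WT library. In AmcKO it was 0.0674, 0.0566 and 0.121, overlapping with WT and MUT. The ratio of Astl to Cd9 rose from 0.0874 ± 0.0128 in WT to 0.148 ± 0.0283 in MUT and 0.214 ± 0.0289 in GcKO (SD, n = 3 each), with no overlap between WT and either, while AmcKO libraries ranged from 0.0503 to 0.130. The ratio of Izumo1r to Cd9 lay between 1.41 and 1.93 for WT, 0.921 and 1.24 for MUT, 1.02 and 1.49 for GcKO, and 0.889 and 1.28 for AmcKO. These ratios are descriptions and were not tested.

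The substrate and the inhibitor of ovastacin showed how it compared with its partners. Zp2, which encodes the zona protein that ovastacin cleaves, was at 191, 163 and 172 FPKM in WT replicates 4, 5 and 6, 88.5, 91.0 and 67.2 in MUT replicates 1, 2 and 3, and 73.6, 116 and 131 in GcKO replicates 1, 2 and 3. No MUT or GcKO library reached the lowest WT value. AmcKO replicates 4, 5 and 6 had 149.5, 140.8 and 125.3 FPKM, also below each WT library. AmcKO against WT was not called (log2 fold change -0.34, limma adjusted p = 0.444). Zp2 changed against WT by -1.09 in MUT (SE 0.20, limma adjusted p = 0.00215) and -0.74 in GcKO (SE 0.20, limma adjusted p = 0.0195), the latter not called without GcKO replicate 1, WT replicate 4 or WT replicate 6 (limma adjusted p up to 0.0733). At the same FPKM sum Zp2 was not called, at -0.10 in MUT and 0.29 in GcKO. Fetub, which encodes fetuin-B, a protein of blood plasma that inhibits ovastacin, was above 0 in every library. It was at 37.8, 42.7 and 35.1 FPKM in WT, 32.2, 52.7 and 40.8 in MUT, 20.9, 31.4 and 30.7 in GcKO, and 40.2, 44.3 and 36.5 in AmcKO libraries in the order of their numbers. The GcKO values were below all others, and Fetub was not called in any contrast as deposited. With the FPKM sums made equal it was called higher than in WT in MUT (1.06) and in GcKO (0.52), where the sign turned from -0.48. Ahsg, which encodes the related fetuin-A, was listed at 0.

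Of the other zona genes, Zp3 was the most abundant, at 633 ± 37.9 FPKM in WT, 444 ± 62.5 in MUT, 532 ± 55.6 in GcKO and 848 ± 181 in AmcKO (SD, n = 3 each). Zp3 was called lower in MUT (log2 fold change -0.52, limma adjusted p = 0.0489), but not without any of 10 libraries nor under the same FPKM sum (0.48) or quantile normalization (0.39), where the sign turned. Zp1 was at 16.97 to 52.1 FPKM and was not called against WT. Thus 2 of the 3 zona genes were called lower in MUT and 1 in GcKO, with medians of -0.52 and -0.25, where 11.3% and 11.4% of all genes were called lower. With the sums made equal none was called lower and 2 were called higher in GcKO, as were 4769 of all 11233 genes (median 0.78, against 0.73 for all genes), and quantile normalization left 1 lower in MUT and 1 higher in GcKO. The ratio of Izumo1r to Zp2 varied little, between 1.45 and 1.95 for WT, 1.84 and 2.03 for MUT, 1.68 and 1.88 for GcKO, and 1.67 and 1.80 for AmcKO.

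Ovastacin is released with the cortical granules, vesicles below the egg membrane that need Rab proteins, motors and SNARE proteins for transport and fusion. Of 29 genes for granule content and release found in the table, 22 were tested, and 3 were called higher and 3 lower in MUT against WT, with the same counts in GcKO. Over all genes, 9.46% were called higher and 11.3% lower in MUT, and 8.71% and 11.4% in GcKO, and whether the list differs from these shares was not tested. The median log2 fold change of the list was 0.35 in MUT and 0.28 in GcKO, against 0.12 for all genes. The most abundant by group mean (n = 3 each) was Rab11a in WT, at 256 FPKM, and Plat, which encodes tissue plasminogen activator, in MUT, GcKO and AmcKO, at 278, 233 and 210.4 FPKM. Vamp2 and Rab27b were listed at 0 in all libraries.

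Among the genes called, Rab11a, for a small GTPase of recycling vesicles, fell from 256 ± 10.5 FPKM in WT to 154.7 ± 6.17 in MUT and 157 ± 16.6 in GcKO (SD, n = 3 each), and both of its calls held with each library left out in turn, though not under all scalings. Rab3b, a GTPase of secretory vesicles, was lower too, at -0.87 for MUT and -0.66 for GcKO on the log2 scale (limma adjusted p = 0.00248 and 0.0130). Snap23, which encodes a membrane SNARE protein, was at 51.5 ± 3.13 FPKM in WT, 29.5 ± 3.08 in MUT and 24.5 ± 8.43 in GcKO (SD, n = 3 each) and was called lower in both. Nsf, for the ATPase that takes SNARE complexes apart, was higher, with 9.36 to 11.7 FPKM for WT, 21.4 to 33.2 for MUT and 21.0 to 47.2 for GcKO. Myo5b, for a myosin motor that carries Rab11 vesicles, was also higher, by 0.94 for MUT and 1.09 for GcKO on the log2 scale (limma adjusted p = 0.00835 and 0.00359). The third higher call was Plat in MUT and Camk2g in GcKO. Calls for Snap23 and Plat in MUT and for Camk2g in GcKO were each lost without any of 6 libraries, and that of Nsf in MUT without MUT replicate 3 (limma adjusted p = 0.0589). At the same FPKM sum, Rab3b and Rab11a turned to positive values and Snap23 did so in MUT, and no gene of the list was called lower, while 12 were called higher in MUT and 11 in GcKO, as were 4641 and 4769 of all 11233 genes. Rab11a in GcKO was among them (0.33, limma adjusted p = 0.0339), opposite to its call as deposited.

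Of 5 other genes of the astacin family, Tll1 and Mep1b were tested, with means of 1.62 and 1.28 FPKM, and neither was called, while Bmp1, Tll2 and Mep1a were listed at 0. The sperm side of fusion served as a comparison. Izumo1, the ligand of the Izumo1r protein, was listed at 0 in every library, as were 13 more of the 23 sperm-side genes in the table, and 6 of the 23 were tested. The most abundant were 4930451I11Rik, Spam1 and Izumo4, with means of 43.2, 22.6 and 7.64 FPKM. Spam1 was called lower in MUT (limma adjusted p = 0.0242), but not without any of 5 libraries, and at the same FPKM sum its sign turned (0.13). It was the 1 call of the 6 in that contrast (median -0.19), where 11.3% of all genes were called lower. The 1 call in GcKO (median -0.32) and in AmcKO (median -0.31) was Spesp1, higher than in WT, where it was listed at 0. Spesp1 was above 0 only in GcKO and AmcKO, the groups with Dpagt1F/F. It was thus tested only through the groups where it was higher, so no conclusion is drawn from its calls. Of all genes, 8.71% were called higher in GcKO and 0.214% were called in AmcKO. No other gene of the lists named here was called in AmcKO against WT.

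Transcripts with the most similar pattern to each member were sought by Pearson correlation of log2(FPKM + 1) over the 12 libraries, among 4758 genes with a mean of at least 5 FPKM. The libraries share their groups and their scale, so a high correlation is a description of these samples. Izumo1r was most like 3010026O09Rik (r = 0.98), Oas1e (0.97) and Zp2 (0.97), and 166 genes had a correlation above 0.9 with it. Cd9 was most like Atp6v1e1 (0.94), Vapa (0.94) and Daglb (0.93), with 11 genes above 0.9. Astl was most like Uvrag (0.85), Stk24 (0.84) and Zcchc3 (0.84), with 0 genes above 0.9.

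The level of Oas1e was 2632 ± 69.0 FPKM in WT, 778 ± 214 in MUT, 1081 ± 412 in GcKO and 1543 ± 185 in AmcKO (SD, n = 3 each), the same order of groups as for Izumo1r. Uvrag was at 6.78 ± 0.913 FPKM in WT, 11.5 ± 3.61 in MUT, 13.8 ± 2.62 in GcKO and 9.25 ± 2.62 in AmcKO (SD, n = 3 each), so that its MUT mean was nearer to GcKO than to WT, unlike Astl. Among the members, the correlation was 0.68 for Cd9 with Izumo1r, -0.56 for Cd9 with Astl and -0.44 for Astl with Izumo1r. Scaling to the same FPKM sum, tried after these values were seen, changed the picture. The correlations then became 0.27, 0.73 and 0.66, that of Izumo1r with Oas1e fell to 0.27, and those of Cd9 with Atp6v1e1 and Daglb fell to 0.73 and 0.56. Izumo1r with Zp2 fell to 0.79, Izumo1r with 3010026O09Rik was at 0.87, Cd9 with Vapa at 0.90 and Astl with Uvrag at 0.96.

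The promoters of Cd9, Astl and Izumo1r are shown to describe the members whose levels differed between groups, with windows of 250 bases before each annotated start from RefSeq (GRCm38.p6), in which all 4 members were found and Astl has 2 starts. The motif CANNTG, the E-box bound by basic helix-loop-helix factors such as FIGLA, TAATTG, bound by NOBOX, the TATA box TATAAA and the GC box GGGCGG were sought on both strands. CANNTG occurred in 66.2% of the 32851 windows of all genes, TAATTG in 7.17%, TATAAA in 12.4% and GGGCGG in 32.7%. In the lines below, capitals mark CANNTG or GGGCGG, and bases inside GENCODE exons of the same gene were left off.
Cd9, reverse strand, chr6:125494792-125495010: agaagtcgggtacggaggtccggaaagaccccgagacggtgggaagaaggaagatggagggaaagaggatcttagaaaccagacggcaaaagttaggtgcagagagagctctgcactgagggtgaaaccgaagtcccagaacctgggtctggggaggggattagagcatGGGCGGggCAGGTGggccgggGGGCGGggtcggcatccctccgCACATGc
Astl, first start, forward strand, chr2:127338389-127338638: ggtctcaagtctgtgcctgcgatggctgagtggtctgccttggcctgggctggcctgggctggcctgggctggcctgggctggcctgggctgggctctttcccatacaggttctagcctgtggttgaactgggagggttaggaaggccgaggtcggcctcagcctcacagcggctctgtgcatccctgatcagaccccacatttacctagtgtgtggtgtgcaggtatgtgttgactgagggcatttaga
Astl, second start, forward strand, chr2:127341386-127341629: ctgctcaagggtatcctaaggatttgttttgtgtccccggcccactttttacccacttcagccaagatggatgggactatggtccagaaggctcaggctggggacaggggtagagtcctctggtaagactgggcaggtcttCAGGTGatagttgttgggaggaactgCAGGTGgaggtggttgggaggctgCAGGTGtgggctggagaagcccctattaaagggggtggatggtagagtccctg
Izumo1r, reverse strand, chr9:14903950-14904017: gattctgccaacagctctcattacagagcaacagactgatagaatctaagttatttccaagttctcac
The whole window of Cd9 held 3 CANNTG and 2 GGGCGG, and 61.6% of its bases were G or C, against a median of 52.4% for all windows. The second start of Astl had 3 CANNTG, each of them CAGGTG, while the first had none. The whole window of Izumo1r held 1 CANNTG, which falls in the part left off, and the Cd81 window held 1 CANNTG and 3 GGGCGG. Neither TAATTG nor TATAAA was found in the windows of the 4 members. These matches say which letters are present and nothing of binding.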

How the data were processed

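The authors deposited FPKM values. According to the submitters' processing notes, reads were aligned to mm10 with TopHat2 2.0.13 and FPKM were computed with Cufflinks 2.2.1. Cuffnorm and Cuffdiff were named as well, without a version. Whether they scaled the deposited values between libraries is not known here. The annotation and the use of strand in counting were not stated. The deposited table also holds the authors' own tests, with columns for the log2 fold change, the p-value and the q-value in each of 6 comparisons, and these columns were not used.

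Values were transformed to log2(FPKM + 1), and 11233 of 24255 genes with at least 1 FPKM in at least 1 library were fitted in limma 3.58.1 (R 4.3.3) with 4 groups, 12 libraries, an abundance trend and 8 residual degrees of freedom. P-values were adjusted by Benjamini and Hochberg over all genes tested, per contrast, and genes below 0.05 were called. The code was tested on simulated data. Alternatives were a pseudocount of 0.1, no filter, a mean of at least 5 FPKM, 3 other scalings (the same FPKM sum, median of ratios, quantile normalization), no abundance trend, only the 2 groups compared, a fold change over 2, the label number as a replicate block, and each library left out. Correlation at the same FPKM sum was added after the data were seen.

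The members and lists were chosen with earlier results of these data known. The text names the members, the genes of the lists that were called or most abundant, and the 3 genes most similar to each member. Named genes of lists that complete a count of at most 5 were named after their values were seen. Levels, ratios, ranks and figures were made in Python 3.11.15 (matplotlib 3.10.9, pandas 2.3.3, numpy 2.4.6). Coordinates are from GENCODE M21 (GRCm38), and promoters from RefSeq (GRCm38.p6). Protein sequence features were not analysed here.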

Additional observations from a re-analysis of the deposited data

Results flagged for a closer look

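Cd9 differed by the test between groups other than WT, which is what marked it here. Its log2 fold change was -0.58 in GcKO against AmcKO and -0.65 in MUT against AmcKO. Both calls were lost without the abundance trend, and that in GcKO with only the 2 groups compared, and the cause was not tested.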

How the results depend on the processing

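FPKM sums differ between the groups, and the scaling moved more results than any other choice; the cause was not tested. At the same FPKM sum the median of all genes became 0.70 in MUT, 0.73 in GcKO and 0.21 in AmcKO against WT, 0.02 in GcKO against MUT, 0.54 in GcKO against AmcKO and 0.52 in MUT against AmcKO. Reversed there were Cd9 in MUT (0.54, relative to the median -0.16) and GcKO (0.65, -0.07) against WT, in GcKO (0.16, -0.38) and MUT (0.0449, -0.48) against AmcKO, and Izumo1r in MUT (0.0434, -0.66) and GcKO (0.31, -0.42) against WT, in GcKO (0.37, -0.17) and MUT (0.10, -0.42) against AmcKO. Astl in MUT against WT became 1.23 and called. Under quantile normalization Cd9 turned to 0.13 in MUT and 0.27 in GcKO, and Izumo1r to 0.0485 in GcKO against WT and 0.10 in GcKO against AmcKO, while Izumo1r in MUT weakened to -0.29.

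Cd9 in MUT against WT was called with a pseudocount of 0.1 (-0.45, limma adjusted p = 0.0495), a mean of at least 5 FPKM (-0.45, limma adjusted p = 0.0356), median of ratios (-0.46, limma adjusted p = 0.0498) and only the 2 groups compared (-0.45, limma adjusted p = 0.0457). Izumo1r in GcKO (-0.72) lost its call with only the 2 groups compared (limma adjusted p = 0.0857). With a fold change over 2 required, Izumo1r in MUT (-0.95) and GcKO (-0.72) and Astl in GcKO (0.88) against WT, and Cd9 in GcKO (-0.58) and MUT (-0.65) against AmcKO, were not called. The 2 Cd9 calls were also lost without the trend, and that in GcKO with only the 2 groups compared.

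Leaving out each library in turn gave, against WT, -0.54 to -0.35 for Cd9 in MUT (called without AmcKO replicate 5, GcKO replicate 1 or WT replicate 6), 0.79 to 0.94 for Astl and -0.84 to -0.51 for Izumo1r in GcKO, and -0.12 to 0.36 for Astl in AmcKO, negative without AmcKO replicate 6. It gave -0.0185 to 0.14 for Cd9 in GcKO against MUT, negative without GcKO replicate 2, and -0.0689 to 0.41 for Astl in MUT against AmcKO, negative without AmcKO replicate 5.

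With the label number as a replicate block, AmcKO against WT gave 0.20 for Cd9, 0.13 for Astl and -0.35 for Izumo1r, and GcKO against MUT gave 0.07, 0.59 and 0.23, none called. Deviations of genes from their group mean correlated at -0.04 to 0.04 between libraries with the same number. They gave no sign of pairing, which does not exclude shared collections. With the block, calls fell from 24 to 9 and from 23 to 9.

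Calls moved with the choices. As reported, 2332 genes were called in MUT against WT (1063 higher, 1269 lower), against 4894 at the same FPKM sum (4641 higher, 253 lower), 1473 under quantile normalization, 1478 with a fold change over 2, 1507 without MUT replicate 2 and 1449 without MUT replicate 3. For GcKO against WT it was 2264 (978 higher, 1286 lower), against 5010 at the same sum (4769 higher, 241 lower), 1356 by quantile, 1248 with only the 2 groups compared, 1372 with a fold change over 2 and 1350 without GcKO replicate 1. AmcKO against WT gave 24 (11 higher, 13 lower), 31 at the same sum (20 higher, 11 lower), 44 with a pseudocount of 0.1, 52 with a mean of at least 5 FPKM, and 11 to 84 with libraries left out. GcKO against MUT gave 23 (8 higher, 15 lower), 75 at the same sum (39 higher, 36 lower), 59 by quantile (27 higher, 32 lower), 11 with only the 2 groups compared, and 8 to 29 with libraries left out. GcKO against AmcKO gave 613 (75 higher, 538 lower), 2606 at the same sum (2478 higher, 128 lower), 250 by quantile (89 higher, 161 lower), 199 without the trend, 0 with only the 2 groups compared, 264 with a fold change over 2, and 252 to 752 with libraries left out. MUT against AmcKO gave 729 (159 higher, 570 lower), 2566 at the same sum (2401 higher, 165 lower), 526 by quantile (210 higher, 316 lower), 386 without the trend, 390 with a fold change over 2, and 296 to 870 with libraries left out.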

Other observations

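Spesp1, a gene of the sperm side, had no value above 0 in WT or MUT, while GcKO replicates 1, 2 and 3 had 8.66, 10.1 and 5.83 FPKM and AmcKO replicates 4, 5 and 6 had 10.2, 8.59 and 15.9 FPKM. GcKO and AmcKO are the groups with Dpagt1F/F, and the cause was not tested.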
